A study of Mus musculus with 4 samples.

Results

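Zinc finger and Krüppel-like transcription factors were described in ILC3s from α-DR3-treated and PBS-treated mice. The members were all genes whose symbol begins with Zfp and a digit, Zbtb, Zscan, Zkscan, Klf and a digit, or Ikzf, except *Zfp36* and its Zfp36l relatives, which encode RNA-binding proteins. The rule found 83 members. The authors' deposited table of 2179 genes gave group means for 57 of them, and the other 26 were found only among the 1999 symbols used here from a gene sheet of the paper's supplement. Both groups were littermate *Rag1*-/- mice, which lack mature T and B cells, and carried a heterozygous GFP reporter that marks ILC3s. Treated mice received 1 µg of α-DR3 (4C12), an agonistic antibody against the receptor DR3, control mice received PBS, and ILC3s (Lin-GFP+) of large intestinal LPLs were sorted on day 3. Each group had 2 libraries, each from the pooled cells of several mice, and the labels give no age.

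C2H2 zinc finger proteins bind DNA through tandem fingers that each read a few bases. The families differ in what is attached to the fingers. Klf proteins carry a short array of fingers at the carboxyl end that recognizes GC-rich and CACCC-type elements, and Ikzf proteins of the Ikaros family shape lymphocyte development. Zbtb proteins add a BTB domain, through which they dimerize and bind corepressors, and Zscan and Zkscan proteins add a SCAN domain for pairing with each other. Many numbered Zfp genes encode KRAB proteins that recruit a TRIM28-SETDB1 corepressor to transposable elements, and these genes sit in arrays that arose by tandem duplication.

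Levels are the authors' mean FPKM (fragments per kilobase of transcript, scaled to the mapped fragments of a library) of the 2 libraries of a group. Because the deposited table has 1 mean for each group, no spread between libraries is given, no test was run, and every comparison below describes these means. The table lists only genes with a p-value under 0.05 in the authors' comparison and a mean over 1 FPKM in at least one group, so each listed member had already been selected for a difference. Differences are given as folds of the group means or as log2(FPKM + 1) of α-DR3 minus that of PBS, a scale that understates the change of low genes. In bulk RNA, fewer cells of a type and less RNA per cell cannot be told apart. Depth per library is unknown here.

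Of 483 protein-coding genes of GENCODE M21 whose symbols follow the rule, 55 were listed (11.4%). Over all 21951 annotated protein-coding genes the listed share was 9.71%, and the share over the rule-named genes lay close to it. *Zfp950*, which has no entry in M21, and *Zfp828*, which M21 names *Champ1*, were listed in addition. The share was 23.5% for Klf (4 of 17), 24.4% for Zbtb (10 of 41), 10.0% for Zscan and Zkscan (3 of 30) and 9.74% for numbered Zfp genes (38 of 390). None of the 5 Ikzf genes was listed.

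More members were lower than higher in ILC3s from α-DR3-treated mice. Of the 57 listed members, 36 were lower (63.2%) and 21 higher, whereas 45.4% of all listed genes were lower. At least 1.5-fold lower were 31 members (54.4%), against 38.4% of all listed genes. At least 1.5-fold higher were 11 members (19.3%), against 37.1% of all listed genes. Of the 31 members, 9 were under 1 FPKM in α-DR3 and could be listed only because PBS was higher. With at least 1 FPKM in both groups, 22 of 47 members were at least 1.5-fold lower (46.8%, beside 39.9% of all such listed genes) and 10 at least 1.5-fold higher (21.3%, beside 31.9%). The listed genes had a median ratio of 1.31, or 0.39 on the log2 scale, and after the α-DR3 means were divided by it 36 members were at least 1.5-fold lower and 3 at least 1.5-fold higher, beside 45.3% and 21.1% of all listed genes. Without this division the median difference was -0.49 over the members and 0.36 over all listed genes. The members' differences ran from -1.001 to 0.94, and the median of their absolute size was 0.62, beside 0.67 over all listed genes. The folds of 18 members lay within about 10% of the 1.5-fold limit. Among those past it were *Zfp740*, with 5.98 FPKM in PBS and 3.94 in α-DR3, and *Zfp706*, with 27.5 and 42.7. Among those just short of it were *Klf11*, *Klf13* and *Zbtb9*.

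**Figure D1:**
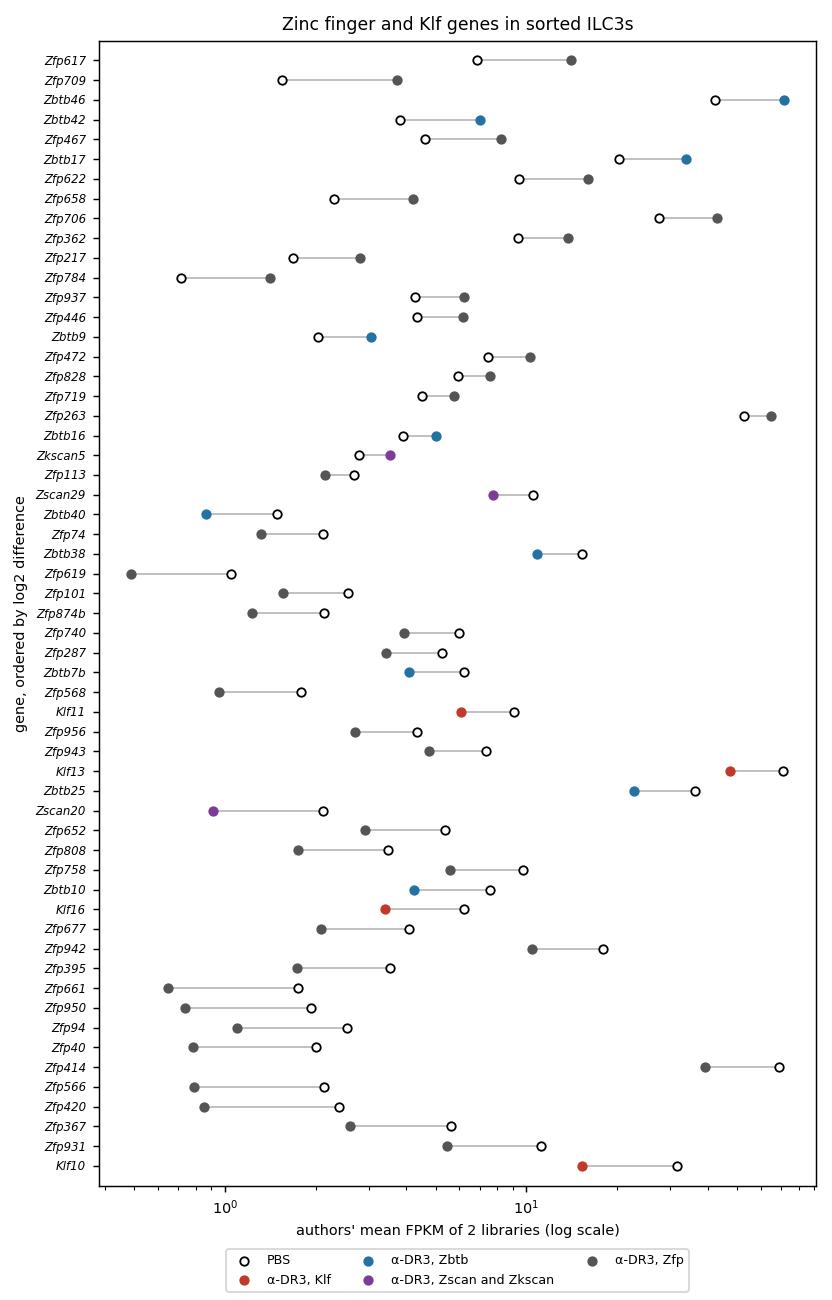
Authors' mean FPKM (log axis) of the 57 listed members in PBS (open circles) and α-DR3 (filled circles, coloured by name family), joined by a line and ordered by the difference in log2(FPKM + 1). The filled circle lies to the left of the open one for 36 members and to the right for 21, of which *Zfp263*, *Zkscan5*, *Zfp828*, *Zfp719* and *Zbtb16* turn lower when α-DR3 is divided by the median ratio of listed genes.

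All 4 listed Klf genes were lower in α-DR3. *Klf10* (ENSMUSG00000037465.8, chromosome 15, 38291463 to 38300706), a gene induced early by TGF-β, had 31.5 FPKM in PBS and 15.3 in α-DR3, or 2.07-fold less. This was the lowest difference of all 57 members, -1.001. *Klf16* (ENSMUSG00000035397.7, chromosome 10, 80567124 to 80577321) had 6.23 FPKM in PBS and 3.39 in α-DR3, 1.84-fold less. *Klf11* (chromosome 12, 24651274 to 24662789), another TGF-β-inducible family member, had 9.12 FPKM in PBS and 6.09 in α-DR3. *Klf13* (chromosome 7, 63886351 to 63938915), a regulator of the chemokine gene *Ccl5* in T cells, was the most abundant of the 4, with 70.7 FPKM in PBS and 47.3 in α-DR3. The folds of *Klf11* and *Klf13* were just short of the limit, at 1.497 and 1.494. *Klf4*, *Klf5* and *Klf6* were members from the supplement sheet that had no row in the deposited table.

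The promoters of *Klf11* and *Klf13* are shown because both genes were lower by nearly the same factor and because GC and CACCC boxes are the elements that Klf proteins recognize. Capitals mark GC boxes (GGGCGG) and CACCC boxes on either strand. Each sequence, from RefSeq on GRCm38.p6, reads 5′ to 3′ on the strand of its gene up to the first transcribed base. They lie at chr12:24651121-24651273 (+) and chr7:63938916-63939165 (-).
Klf11: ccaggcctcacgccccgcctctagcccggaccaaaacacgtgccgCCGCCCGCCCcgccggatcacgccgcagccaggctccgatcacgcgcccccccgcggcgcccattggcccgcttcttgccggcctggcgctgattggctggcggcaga
Klf13: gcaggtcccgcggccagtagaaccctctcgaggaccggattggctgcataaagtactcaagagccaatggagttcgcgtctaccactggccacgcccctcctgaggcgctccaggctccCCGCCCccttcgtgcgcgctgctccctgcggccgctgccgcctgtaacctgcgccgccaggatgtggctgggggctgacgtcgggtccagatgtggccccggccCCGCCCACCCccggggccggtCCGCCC
The stretch shown for *Klf11*, of 153 bases, holds 2 GC boxes, which overlap each other, and no CACCC box. That of *Klf13*, of 250 bases, holds 3 GC boxes and 1 CACCC box, which overlaps one of them. The counts are not on equal lengths. Over the 250 bases before the RefSeq start, *Klf11* has 4 GC boxes and *Klf13* 3. The GC contents of the stretches shown were 75.8% and 71.6%.

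The Ikaros family gave no listed gene. *Ikzf1*, the founding lymphoid factor, *Ikzf3* and *Ikzf4* were members through the supplement sheet only and carry no value here.

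The Zbtb genes were evenly divided, with 5 lower and 5 higher members and a median difference of -0.06. *Zbtb46* (ENSMUSG00000027583.6, chromosome 2, 181387762 to 181459426), best known as a marker of classical dendritic cells, had the highest level among them, 42.3 FPKM in PBS and 71.4 in α-DR3, 1.69-fold more. *Zbtb17* (ENSMUSG00000006215.6, chromosome 4, 141444654 to 141467930), which encodes the MYC partner MIZ-1, was 1.67-fold higher, with 20.2 FPKM in PBS and 33.8 in α-DR3. *Zbtb42* had 3.81 FPKM in PBS and 7.01 in α-DR3, 1.84-fold more, the widest ratio on the higher side of this family. *Zbtb9* had 2.05 and 3.06 FPKM, at a fold of 1.494. *Zbtb16*, which encodes PLZF, a factor of innate lymphoid and NKT cell precursors, had 3.90 FPKM in PBS and 5.0 in α-DR3, a difference of 0.29 that became -0.020 when the α-DR3 means were divided by the median ratio of all listed genes.

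On the lower side, *Zbtb25* had 36.3 FPKM in PBS and 22.8 in α-DR3, 1.59-fold less. *Zbtb10* had 7.57 FPKM in PBS and 4.25 in α-DR3, 1.78-fold less, the widest gap on this side by difference. *Zbtb7b*, which encodes ThPOK, the factor of the CD4 T cell lineage, had 6.22 and 4.08 FPKM. Lower too were *Zbtb38*, whose product binds methylated DNA, with 15.2 and 10.8 FPKM, and *Zbtb40*, with 1.49 and 0.87. *Zbtb32* was a member through the supplement sheet only.

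Among the SCAN genes, *Zscan20* had 2.12 FPKM in PBS and 0.92 in α-DR3, 2.31-fold less. *Zscan29* was at 10.5 FPKM in PBS and 7.73 in α-DR3. *Zkscan5* was at 2.80 and 3.54 FPKM, a difference of 0.26 that turned to -0.032 under division by the median ratio. *Zkscan6* was found in the supplement sheet only.

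**Figure D2:**
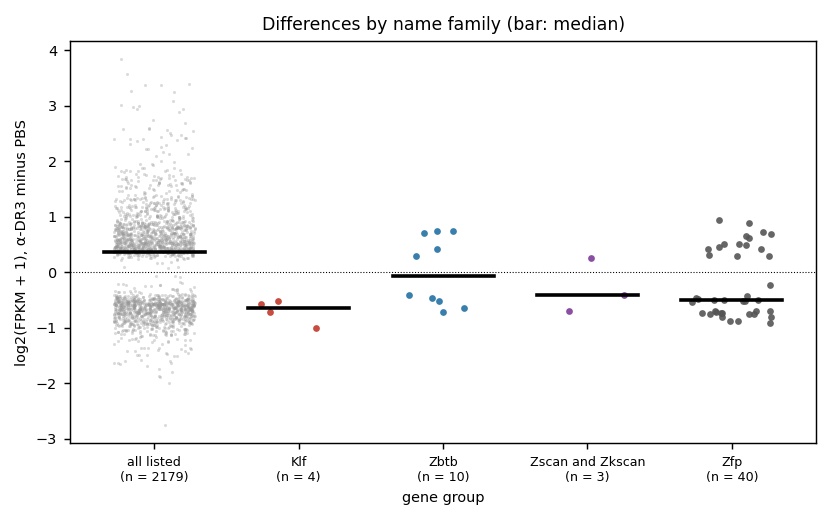
Difference in log2(FPKM + 1), α-DR3 minus PBS, of all 2179 listed genes and of the listed members by name family; each point is a gene and bars are medians. The 4 Klf genes lie below 0, the Zbtb genes lie evenly on both sides (5 and 5, of which *Zbtb16* turns lower under division by the median ratio), and the gap around 0 comes from the listing of changed genes only.

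Numbered Zfp genes made up 40 of the 57 listed members, with 25 lower (62.5%, beside 45.4% of all listed genes), 15 higher and a median difference of -0.49. Of the 25, 7 were under 1 FPKM in α-DR3 and listed through PBS alone, so their direction was fixed by the listing. Their highest levels in PBS were those of *Zfp414* (69.0 FPKM), *Zfp263* (52.6 FPKM), *Zfp706* (27.5 FPKM), *Zfp942* (17.9 FPKM), *Zfp931* (11.2 FPKM) and *Zfp758* (9.74 FPKM). Of these abundant genes, *Zfp414* (chromosome 17, 33629090 to 33631779) was 1.77-fold lower, at 39.0 FPKM in α-DR3. *Zfp706* (chromosome 15, 36997027 to 37007773), studied for its part in the exit of embryonic stem cells from self-renewal, was 1.56-fold higher. *Zfp263* had 64.8 FPKM in α-DR3, a difference of 0.30 that turned to -0.083 under division by the median ratio.

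The 8 lowest differences among numbered Zfp genes belonged to *Zfp931*, *Zfp367*, *Zfp420*, *Zfp566*, *Zfp414*, *Zfp40*, *Zfp94* and *Zfp950*. *Zfp931* had 11.2 FPKM in PBS and 5.45 in α-DR3, 2.05-fold less, and *Zfp367* had 5.64 and 2.61 FPKM, 2.17-fold less. The remaining genes except *Zfp414* were near or under 1 FPKM in α-DR3. *Zfp420* was the member with the widest ratio on the lower side, 2.80-fold, from 2.39 FPKM in PBS to 0.86 in α-DR3. *Zfp566* had 2.14 and 0.79 FPKM, *Zfp40* 2.02 and 0.79, *Zfp94* 2.55 and 1.10, and *Zfp950* 1.93 and 0.74. By ratio, 12 members were at least 2-fold lower (21.1%, beside 11.8% of all listed genes), but 7 of them had under 1 FPKM in α-DR3 and were listed through PBS alone. Among members with at least 1 FPKM in both groups, 5 of 47 were at least 2-fold lower (10.6%), beside 9.9% of all such listed genes. On the other side, *Zfp617* and *Zfp709* were at least 2-fold higher (3.51%, beside 20.5%).

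The 8 highest differences among numbered Zfp genes were those of *Zfp617*, *Zfp709*, *Zfp467*, *Zfp622*, *Zfp658*, *Zfp706*, *Zfp362* and *Zfp217*. *Zfp617* (ENSMUSG00000066880.8, chromosome 8, 71908635 to 71934629) had 6.85 FPKM in PBS and 14.02 in α-DR3, 2.05-fold more and the highest difference of all members, 0.94. *Zfp709* (ENSMUSG00000056019.6, chromosome 8, 71882019 to 71895727) had 1.55 and 3.73 FPKM, 2.41-fold more. *Zfp622*, which encodes a factor of large ribosomal subunit maturation, had 9.49 FPKM in PBS and 16.0 in α-DR3, 1.68-fold more. *Zfp467*, known from the choice between fat and bone cell fates, had 4.63 and 8.26 FPKM. *Zfp658* had 2.31 and 4.22 FPKM, *Zfp362* 9.38 and 13.8, and *Zfp217*, a gene amplified in breast cancers, 1.69 and 2.82. These genes span levels from under 2 to over 40 FPKM, so the higher members were not held to one range of expression.

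The other higher Zfp members had smaller differences. *Zfp784* had 0.72 FPKM in PBS and 1.41 in α-DR3, and it was the single member listed through its α-DR3 mean alone. *Zfp937* had 4.26 and 6.19 FPKM, *Zfp446* 4.35 and 6.18, and *Zfp472* 7.48 and 10.3. *Zfp828*, whose product acts in chromosome alignment, had 5.92 FPKM in PBS and 7.59 in α-DR3, and *Zfp719* had 4.50 and 5.77, differences that turned to -0.024 and -0.022 under division by the median ratio.

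Of the other lower Zfp members, *Zfp395* had 3.55 FPKM in PBS and 1.73 in α-DR3, *Zfp677* 4.09 and 2.08, *Zfp808* 3.48 and 1.75, and *Zfp652*, a transcriptional repressor, 5.37 and 2.92. *Zfp661* lay in the lowest range, with 1.76 FPKM in PBS and 0.65 in α-DR3. *Zfp956* had 4.33 and 2.70 FPKM, *Zfp287* 5.27 and 3.42, *Zfp874b* 2.14 and 1.24, and *Zfp619* 1.05 and 0.49. The smallest gap of any lower member was that of *Zfp113*, with 2.68 FPKM in PBS and 2.15 in α-DR3, a difference of -0.23.

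The members were less abundant than the listed genes as a whole. Their median was 4.50 FPKM in PBS and 4.08 in α-DR3, against 9.87 and 9.94 over all listed genes, and the authors' log2 mean CPM (library-scaled counts) had a median of 3.65 over the members and 4.56 over all listed genes. At low levels the listing itself fixed many directions, since a gene under 1 FPKM in one group was listed only where the other group was higher. In this way 9 members were listed through their PBS mean alone, *Zfp420*, *Zfp566*, *Zfp661*, *Zfp950*, *Zfp40*, *Zfp619*, *Zfp568*, *Zscan20* and *Zbtb40*, and *Zfp784* through its α-DR3 mean alone. They make up 10 of the 13 members with a mean of both groups up to 2 FPKM, of which 12 were lower, so nothing is read from that count. Over all listed genes 83 were listed through PBS alone and 207 through α-DR3 alone.

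Among the 47 members with at least 1 FPKM in both groups, 27 were lower (57.4%), beside 48.0% of all 1889 such listed genes. Of these, 3 members lay up to 2 FPKM, all lower, beside 61.0% of all such listed genes. From over 2 to 5 FPKM 11 of 17 were lower, beside 53.8% of all such listed genes, from over 5 to 10 FPKM 7 of 14, beside 53.8%, and above 10 FPKM 6 of 13, beside 43.4%. The limits of these ranges were chosen after the values were seen. Above 5 FPKM the members' shares thus lay near those of all listed genes.

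**Figure D3:**
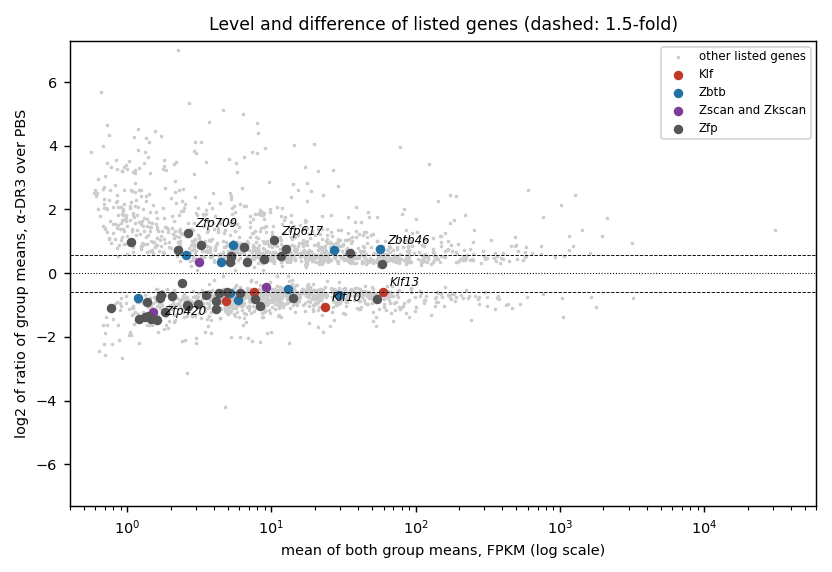
Log2 of the ratio of group means (α-DR3 over PBS) against the mean of both group means in FPKM (log axis) for listed genes, with members coloured by family; 10 listed genes with a group mean of 0 are left out. Members lie on both sides of 0 at most levels, and of the 13 members up to 2 FPKM 10 had under 1 FPKM in one group, so that their listing fixed their side.

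Several members were neighbours in the genome, and some runs of neighbours shared their direction. With a gap of at most 500 kb between adjacent listed members, 11 neighbouring pairs were found, and 8 of them had the same direction (72.7%). Over all listed genes 776 of 1237 such pairs had the same direction (62.7%), so neighbouring genes of any kind often had the same direction in this table. With at least 1 FPKM in both groups, 5 of 7 member pairs had the same direction (71.4%), beside 626 of 1001 pairs of all listed genes (62.5%). All coordinates of genes are those of GENCODE M21 on GRCm38, the build the authors used.

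On chromosome 7, *Zfp420*, *Zfp74*, *Zfp568* and *Zfp566* lie within 230.5 kb, from 29859979 to 30090527, and all 4 were lower. The array holds 9 annotated protein-coding genes, of which 8 carry symbols of this rule, and no other gene of the span was listed. *Zfp420*, *Zfp568* and *Zfp566* were under 1 FPKM in α-DR3, so their listing fixed their direction, and nothing is read from the direction that the 4 share. *Zfp74* had 2.13 FPKM in PBS and 1.32 in α-DR3, and *Zfp568*, which encodes a KRAB repressor of a placental *Igf2* transcript, had 1.79 and 0.96. On chromosome 17, *Zfp942*, *Zfp943* and *Zfp758* lie within 450.3 kb, from 21926960 to 22377281, and all 3 were lower. *Zfp942* had 17.9 FPKM in PBS and 10.4 in α-DR3, *Zfp943* had 7.34 and 4.76, and *Zfp758* had 9.74 and 5.59. *Zfp942* and *Zfp943* are divergent, with RefSeq starts 95 bases apart, and their folds were 1.72 and 1.54. A pair on chromosome 8 and a pair on chromosome 7 were higher. *Zfp709* and *Zfp617* lie within 52.6 kb, and *Zfp658* and *Zfp719* lie within 31.0 kb, the latter pair with *Zfp719* turning lower under division by the median ratio.

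Other neighbours had opposite directions. *Zfp472* (10.3 FPKM in α-DR3, higher) lies within 666.0 kb on chromosome 17 with *Zfp101* and *Zfp414*, which were lower. *Zfp101* had 2.57 FPKM in PBS and 1.56 in α-DR3. That span holds 18 annotated protein-coding genes, of which 9 carry symbols of this rule. In it 2 genes that are no members were listed, both lower. Opposite directions were also found for *Zscan20* and *Zfp362* on chromosome 4, and for *Zfp956* and *Zfp467* on chromosome 6. Where neighbours are closely related, their reads may have been divided among them by the authors' quantification, so the values of such neighbours are uncertain. For 9 members the gene overlaps another protein-coding gene, among them *Zfp784*, *Zbtb17* and *Klf13*, and with no stated strand in the counting such genes cannot be told apart where they overlap.

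**Figure D4:**
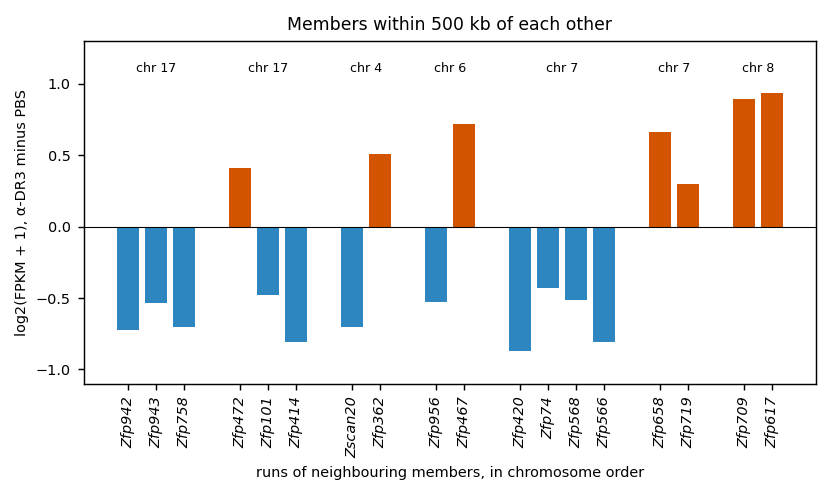
Difference in log2(FPKM + 1), α-DR3 minus PBS, of listed members that lie within 500 kb of each other, in runs ordered along chromosomes (blue lower, orange higher). The 4 genes of the first chromosome 7 run (3 of them listed through PBS alone) and the 3 of the first chromosome 17 run lie below 0, both genes of the chromosome 8 run lie above it, *Zfp719* turns lower under division by the median ratio, and 3 runs hold both directions.

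The promoters of *Zfp420*, *Zfp74* and *Zfp566* of the chromosome 7 array are shown because they share a run of bases. The other listed gene of that array, *Zfp568*, had no RefSeq promoter by symbol and was not compared. The promoter of *Zfp709*, the member with the widest ratio on the higher side, and the stretch between the divergent starts of *Zfp942* and *Zfp943* are shown beside them. Capitals mark the run ACTACATTTCCCAGAG and GC and CACCC boxes, on either strand. The sequences read 5′ to 3′ on the strand of the gene, or on the + strand for the stretch between 2 genes, and end before the first transcribed base. They lie at chr7:29859762-29859978 (+), chr7:29954090-29954315 (-), chr7:30090528-30090760 (-), chr8:71881818-71882018 (+) and chr17:21962465-21962551.
Zfp420: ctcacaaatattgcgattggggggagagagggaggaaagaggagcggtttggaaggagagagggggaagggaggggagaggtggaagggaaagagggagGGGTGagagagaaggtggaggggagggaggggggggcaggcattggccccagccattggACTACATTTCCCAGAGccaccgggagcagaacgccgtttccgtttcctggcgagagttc
Zfp74: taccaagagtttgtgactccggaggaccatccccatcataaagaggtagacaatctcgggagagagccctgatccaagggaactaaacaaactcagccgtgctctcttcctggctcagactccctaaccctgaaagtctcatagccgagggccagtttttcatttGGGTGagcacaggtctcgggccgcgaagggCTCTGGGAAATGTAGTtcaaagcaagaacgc
Zfp566: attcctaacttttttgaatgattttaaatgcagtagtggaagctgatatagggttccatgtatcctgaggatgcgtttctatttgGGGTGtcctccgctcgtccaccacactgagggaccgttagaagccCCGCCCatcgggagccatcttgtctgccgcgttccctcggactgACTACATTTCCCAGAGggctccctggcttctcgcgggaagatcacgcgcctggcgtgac
Zfp709: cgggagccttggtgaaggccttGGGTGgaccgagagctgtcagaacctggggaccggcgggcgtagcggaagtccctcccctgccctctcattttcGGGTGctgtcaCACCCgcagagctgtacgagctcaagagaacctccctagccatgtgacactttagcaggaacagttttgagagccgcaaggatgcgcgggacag
Zfp942-Zfp943: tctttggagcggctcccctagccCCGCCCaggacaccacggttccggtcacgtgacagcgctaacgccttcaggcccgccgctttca
The run, of 16 bases, is the longest that the 3 promoters share on either strand, and *Zfp74* carries it on the strand opposite to that of *Zfp420* and *Zfp566*. It was chosen after the values were seen and because these genes share it, so its frequency is a description. Over the 250 bases before the start, it was found in these 3 of 44 members with a RefSeq promoter (6.82%) and in 12 of 32851 promoters of all genes (0.0365%), these 3 included. *Zfp709* holds 3 CACCC boxes and no GC box in the stretch shown, and the *Zfp942*-*Zfp943* stretch holds 1 GC box.

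The shares of member promoters with a GC, CACCC or CCAAT box lay above those of all promoters, and the share with a TATA box lay below, with no test run. Over the 250 bases before the start, the median GC content was 56.6% in 44 members and 52.4% in all promoters, and the median number of CpG dinucleotides was 14 and 6. GC boxes were found in 50.0% of member promoters and 32.7% of all promoters, CACCC boxes in 68.2% and 52.0%, and CCAAT boxes (CCAAT) in 54.5% and 33.8%. TATA boxes (TATAAA) were found in 4.55% and 12.4%. Between lower and higher members, GC boxes were found in 13 of 29 and 9 of 15 promoters, and CACCC boxes in 18 of 29 and 12 of 15. AP-1 sites (TGANTCA) were found in 6.82% of member promoters and 6.75% of all promoters, and cAMP response elements (TGACGTCA) in 4.55% and 1.55%. Every motif was searched on both strands, and all promoters include several starts of some genes.

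Other zinc finger factors were followed through a list of 28 genes. The deposited table listed 9 of them, where 9.71% of all annotated protein-coding genes were listed. Of the 9, 5 were lower and 4 higher, where 45.4% of all listed genes were lower, and the median difference was -0.41, beside 0.36 over all listed genes. *Bcl11b*, a factor of T cell commitment, had 2.39 FPKM in PBS and 0.80 in α-DR3. It was listed through PBS alone, so its direction was fixed by the listing. *Bcl6*, the repressor of germinal centre B cells, had 6.15 FPKM in PBS and 3.69 in α-DR3. *Sp4*, a relative of the Klf genes, had 16.2 FPKM in PBS and 10.7 in α-DR3. *Nr4a1*, an orphan receptor induced early by many stimuli, had 1516 FPKM in PBS and 589 in α-DR3, and its relative *Nr4a2* had 78.2 and 58.8. On the higher side, *Zeb2* had 1.495 FPKM in PBS and 5.31 in α-DR3, *Egr2* 3.81 and 7.35, *Rest*, the repressor of neuronal genes, 29.8 and 46.1, and *Zeb1* 99.4 and 118. The other 19 genes of the list, *Gata3*, *Gfi1*, *Prdm1*, *Ctcf* and *Egr1* among them, had no row.

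The partners of these proteins were read against the 9.71% of all annotated protein-coding genes that were listed. Of 14 genes of the KRAB corepressor complex and the silencing machinery, the deposited table listed 1, *Dnmt1*, the maintenance DNA methyltransferase, with 7.08 FPKM in PBS and 4.70 in α-DR3. *Trim28* and *Setdb1* had no row. Of 8 BTB partners 2 were listed, both lower. *Sin3a*, a corepressor scaffold, had 13.99 FPKM in PBS and 9.72 in α-DR3, and *Hdac4*, a histone deacetylase, had 8.13 and 5.38.

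Marker genes of other cell types differed between the same groups. Of 14 markers of myeloid and dendritic cells 7 were listed, where 9.71% of all annotated protein-coding genes were listed. All 7 were higher, where 1190 of all 2179 listed genes were higher. The summed level of the 7 was 9.58 FPKM in PBS and 62.0 in α-DR3. Of them, 5 were under 1 FPKM in PBS and listed through α-DR3 alone, so their direction was fixed by the listing. *Lyz2* had 4.09 and 37.9 FPKM, while *Csf1r*, *Itgax*, *Itgam* and *Adgre1* had no row. Of 7 fibroblast markers 5 were listed, all higher, with sums of 6.58 and 16.6 FPKM. Of these 5, 3 were under 1 FPKM in PBS and listed through α-DR3 alone, which fixed their direction. No epithelial, T or B cell marker was listed. Because *Zbtb46* also marks dendritic cells and was higher in the same libraries, these values stand beside it, and their part in the members' values was not tested. Of 10 ILC3 markers 5 were listed, 4 higher and 1 lower. *Il22* had 17424 FPKM in PBS and 44537 in α-DR3, and *Ccr6* had 29.45 and 68.3. *Thy1* had 163 and 268 FPKM, *Ahr* 10.7 and 16.0, and the lower *Ncr1* 460.2 and 279.

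The 26 members found only in the supplement sheet have no row in the deposited table and no value here. Besides those named above, they were *Zfp184*, *Zfp207*, *Zfp276*, *Zfp296*, *Zfp318*, *Zfp324*, *Zfp334*, *Zfp385a*, *Zfp385c*, *Zfp592*, *Zfp651*, *Zfp655*, *Zfp715*, *Zfp775*, *Zfp790*, *Zfp81*, *Zfp955a* and *Zfp959*. *Zfp40*, *Zfp287* and *Zbtb17* were found in both sources. The sheet was read in a shortened copy of 1999 symbols, so neither this overlap nor the 83 members in all is a full count.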

How the data were processed

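RNA of ILC3s from 2 PBS and 2 α-DR3 libraries was analysed. According to the paper's methods and the submitters' processing notes, the authors aligned the reads with STAR 2.5 against GRCm38.p5, took gene levels from RSEM 1.2 with the GENCODE M16 annotation and compared groups in edgeR 3.18.1. The deposited FPKM values are the authors' means of the 2 libraries of a group. The deposited log2 mean CPM is the authors' average over all libraries, and gene lengths are those the authors list. The deposited table also holds the authors' fold changes, test statistics, p-values and FDR. Of these, the deposited p-value column was read to check that all entries lay under 0.05, and nothing else was used. Values of single libraries in the paper's supplement were not used, and only gene symbols were taken from it. FPKM means carry no counts, so depth is unknown and no interval is given.

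Ratios, log2 differences with a pseudocount of 1 FPKM, medians and counts were computed with Python 3.11.15, numpy 2.4.6 and pandas 2.3.3, and the calculation was tested on simulated data. No statistical test was run. Members were matched to GENCODE M21 by identifier (56 of 57), and promoters came from RefSeq on GRCm38.p6 by symbol (44 of 57), with the start nearest the GENCODE 5′ end where there were several. Every listed member is named. The full descriptions follow a rule that took all Klf, Ikzf, Zbtb, Zscan and Zkscan members, the 8 highest and 8 lowest differences and the 6 highest PBS levels of Zfp members, and neighbours. Some genes of these lists are not reported here and were left out of their counts. Members and lists were chosen with earlier results of these data known. Alternatives were pseudocounts of 0.1 and 5, filters on low FPKM, division of α-DR3 by the median ratio of listed genes and a 2-fold limit. After the values were seen, a fold with a pseudocount of 1, a floor of 1 FPKM in both groups, the ranges of level and the shared run of bases were added.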

Additional observations from a re-analysis of the deposited data

How the results depend on the processing

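No paired analysis was possible because the means used here combine the replicates of each group, and for the same reason no replicate was left out. The planned restriction to members whose RefSeq protein holds a finger pattern was not run. With a mean over 5 FPKM in either group, 18 of 32 members were lower, 14 were at least 1.5-fold lower and 7 at least 1.5-fold higher (56.2%, 43.8% and 21.9%, beside 46.6%, 38.2% and 31.6% of all listed genes over that level). The deposited table is a list of changed genes, so its median ratio of 1.31 (0.39 on the log2 scale) need not be a technical shift. After division by it, 41 members were lower (71.9%, beside 50.0% of all listed genes) and 16 higher. At least 1.5-fold higher were 3 members (5.26%, beside 21.1%). The direction of 5 members changed, to -0.020 for *Zbtb16*, -0.083 for *Zfp263*, -0.022 for *Zfp719*, -0.024 for *Zfp828* and -0.032 for *Zkscan5*. A pseudocount of 1 left 20 members at least 1.5-fold lower (35.1%, beside 30.4%) and 9 at least 1.5-fold higher (15.8%, beside 32.1%). A pseudocount of 5 left 3 lower and 3 higher past that limit and a median difference of -0.26, beside 0.22 over all listed genes. These counts are 5.26% each, beside 13.2% and 16.7% of all listed genes, and that pseudocount is above the members' median PBS level of 4.50 FPKM but below the 9.87 of all listed genes. A 2-fold limit left 12 lower and 2 higher.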
